A study of Mus musculus with 17 samples.

Results

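The Sirt6 gene was examined in mouse embryonic stem cells with and without Sirt6. The region studied was 27 kb of chromosome 10 in mouse build mm9, made up of the approximate bounds of the gene and 10 kb on each side. It reached from 11001 bp below position 81085001 to 11000 bp above position 81090000. It was chosen by position, with the earlier finding in view that reads of the knockout were absent from it, and its values are therefore given as a description with no test. The region held 9 features of 39732 in the deposited tables and peak lists: 8 of the 3780 CMS-IP windows of 500 bp, 1 of the 14510 WT Sirt6 peaks, and none of the peaks in the 8 histone acetylation lists.

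The samples were embryonic stem cells of the 129 strain, either wild type (WT) or Sirt6 knockout (KO). CMS-IP of untreated cells had an immunoprecipitated (IP) and an input library for each genotype. Chromatin immunoprecipitation with sequencing (ChIP-seq) for the histone marks H3K9ac and H3K56ac was run in both genotypes, in untreated cells and in cells given retinoic acid (RA) for 2 days and collected the day after its removal. Sirt6 ChIP-seq came from untreated cells, 1 library of WT and 2 of KO, the latter made with a lower and a higher amount of antibody. Each genotype also had a whole-cell extract library. The ChIP-seq cells were grown on irradiated mouse fibroblasts that were removed by plating. Every group was 1 library, and the differences described here were not checked with replicates. The labels do not say which part of the gene the KO cells lack, nor from how many clones they came.

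Sirt6 encodes a NAD-dependent deacetylase of the sirtuin family that removes acetyl groups from H3K9ac and H3K56ac, marks found at active promoters and enhancers. 5-hydroxymethylcytosine is made from 5-methylcytosine by the Tet enzymes and is common in gene bodies of embryonic stem cells, while promoters rich in CG dinucleotides usually carry little of it. In CMS-IP, bisulfite turns 5-hydroxymethylcytosine into cytosine 5-methylenesulfonate, and an antiserum against that product pulls the DNA down. The input is the same kind of DNA without the pull-down, so a region that is missing from the genome gives no reads in either library.

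In RefSeq's annotation of the later build GRCm38.p6, Sirt6 lies on the minus strand, so its start is at the higher coordinates, and the same orientation was taken for mm9. Its neighbours there are the transcribed pseudogene BC025920 and, on the side of its start, the protein-coding gene Ankrd24, which is read from the plus strand in the opposite direction. The 250 bases before a Sirt6 start are shown because the Sirt6 peak and the last window without KO reads, described below, lie at the start side of the gene. They are from chr10:81627567-81627816 of GRCm38.p6 (minus strand, from RefSeq), and capitals mark each CG dinucleotide, the usual site of cytosine methylation and hydroxymethylation.
Sirt6 promoter: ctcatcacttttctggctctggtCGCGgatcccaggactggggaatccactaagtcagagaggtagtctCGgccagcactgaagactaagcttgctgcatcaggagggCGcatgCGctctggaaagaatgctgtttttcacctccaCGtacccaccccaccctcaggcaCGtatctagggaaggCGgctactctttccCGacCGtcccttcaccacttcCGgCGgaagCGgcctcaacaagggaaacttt
The motif searched was CG, which reads the same on both strands. This stretch holds 13 CG dinucleotides, and 31.5% of the 32851 promoter stretches of the same length in the RefSeq table hold at least as many, against a median of 6. At least 1 CG is in 92.1% of them. The second Sirt6 start in that table has 20 CG dinucleotides in its 250 bases, a number that 17.9% of the stretches reach. Those bases, chr10:81627323-81627572, lie almost wholly past the first start in the direction of reading. They are therefore not a separate stretch upstream of the gene. No sequence of mm9 was used, so these bases were not placed relative to the windows and peaks below.

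The first question was whether the KO libraries held any reads from the gene. The 8 windows listed in the region all lay within the approximate gene bounds, between 81085001 and 81090000, and the KO libraries held 0 reads in every one of them, in IP and in input alike. From the low to the high coordinate, which is from the end of the gene towards its start, the WT IP library held 39 and 30 reads in the windows from 81085001 and 81085501. It held 28, 23, 56, 74, 45 and 30 reads in the 6 windows that follow one another from 81087001 to 81090000. The WT IP library was thus highest in the window from 81088501 to 81089000. In the same order the WT input library held 18 and 20 reads, and then 8, 10, 19, 18, 22 and 42. The WT input was highest in the last window, from 81089501 to 81090000, at the start side of the gene. Each KO value was 0, and the lowest WT values were 23 IP reads and 8 input reads. Without replicate libraries, the spread within a genotype could not be set against these differences. The authors listed these windows for their IP difference, so a difference in IP reads was bound to appear.

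**Figure D1:**
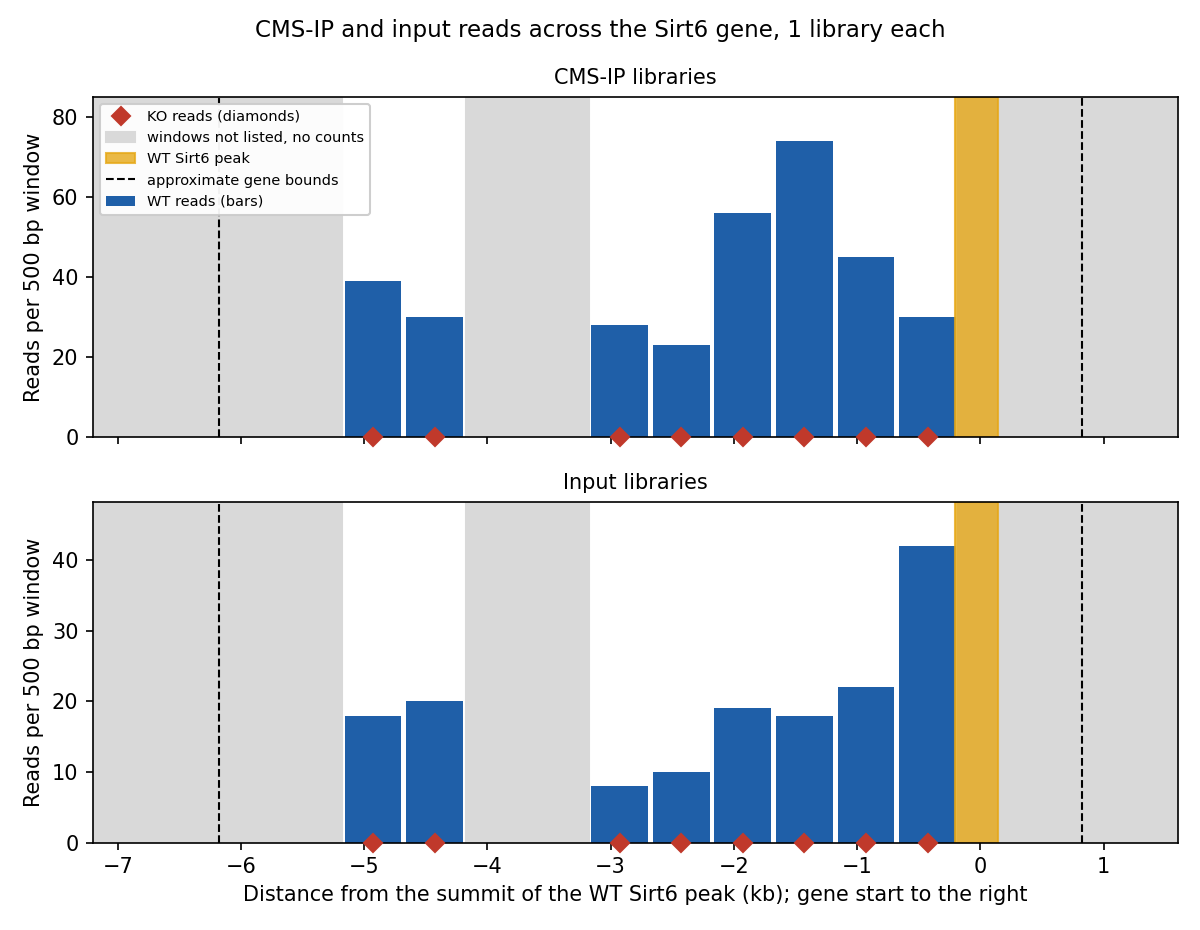
Reads per 500 bp window in the CMS-IP libraries (upper panel) and the input libraries (lower panel) across the Sirt6 gene, plotted by distance in kb from the summit of the WT Sirt6 peak; bars are the WT library, diamonds the KO library, grey marks windows for which the table gives no counts, the yellow band is the WT Sirt6 peak and dashed lines are the approximate gene bounds. All 8 KO values are 0 in both panels, against 23 to 74 WT IP reads and 8 to 42 WT input reads.

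Summed over the 8 windows, the WT libraries held 325 IP reads and 157 input reads, and the KO libraries held 0 of each. From the counts and RPKM of the table, the library sizes were 23924232 reads (KO) and 16623305 reads (WT) for the inputs, and 11413874 reads (KO) and 13451714 reads (WT) for the IPs. The KO input was therefore the deeper of the input libraries, and at the WT level it would have held 226 reads here. A count of 0 allows up to 3 reads over the group of windows. With the WT count taken as exact, the KO input level was thus at least 75.3-fold lower than the WT level, or at most 1.33% of it. The same bound for the IP, where 276 KO reads would match the WT level, was at least 91.9-fold lower, or at most 1.09% of WT. With 3 reads allowed in each window, the single windows gave bounds of at least 6.51-fold to at least 20.9-fold lower in the IP and of at least 3.84-fold to at least 20.1-fold lower in the input. Any DNA with an intact copy of these windows in the KO preparation, from other cells in the culture for example, would count towards the limit of 1.33%. These bounds cover counting error only, as reads amplified by PCR without molecular identifiers are not independent molecules.

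The other listed windows of this part of chromosome 10 lay far from the gene. The nearest one below the region, 143.5 kb away from 80930001 to 80930500, held 37 KO and 30 WT input reads, and the nearest above it, 1180.5 kb away from 82281501 to 82282000, held 14 and 15. Within 2 Mb on either side the table lists 21 other windows, and the KO input had reads in all of them, from 7 to 109 per window. Of these 21, 20 were listed as higher in KO, with at least 10 KO IP reads each, so they entered the table through KO reads and KO DNA had to be present in them. The only one lower in KO was the window from 82281501. Summed, they held 884 KO and 725 WT input reads, a ratio of 0.847 after scaling to library size (exact 95% interval 0.767 to 0.936; counting error only, as for the other intervals here). Over all 233 listed windows of chromosome 10 outside the gene the input ratio was 1.06 (1.02 to 1.10). Windows listed as lower in KO, the direction of the Sirt6 windows, are the closer comparison. Their input ratio was 0.704 (0.582 to 0.853) over the 17 on chromosome 10 outside the gene. Over the 1554 outside the gene in the whole table it was 0.550 (0.541 to 0.559). Many of these 1554 windows lay on chromosome 14, and the ratio was not taken by chromosome. Its interval does not cover differences between windows or chromosomes, so 0.550 is not a common level of lower windows. Whether KO reads were missing between the Sirt6 windows and the nearest listed windows was not measured.

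The 8 windows span 5000 bp, and the table gives no counts for 2 of the 10 windows in that span, from 81086001 to 81087000. It also gives none for the other windows of the region, on either side of the span. The authors listed only windows with p under 0.001 for the IP difference, and in the whole table a window with 0 KO IP reads was listed only with 12 or more WT IP reads. An unlisted window may therefore hold no KO reads and too few WT reads, or may hold KO reads. The part without KO reads thus includes the 4000 bp of the listed windows, and its ends could not be placed: the listed windows stop 1001 bp from the lower and 1000 bp from the upper approximate gene bound, and no window beyond them has a count. Which exons lie in the span was not analysed here, as no annotation of mm9 was used.

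Windows with reads in WT and none in KO were rare in the table. Of all 3780 listed windows, 13, or 0.344%, held 0 KO input reads and at least 10 WT input reads, and 7 of these 13 were in Sirt6. The eighth Sirt6 window, from 81087001 to 81087500, missed that minimum with 8 WT input reads. With 0 KO reads in both IP and input the table held 33 windows, or 0.873%, and Sirt6 supplied 8 of them and 157 of their 302 WT input reads (52.0%). Both percentages are over all 3780 windows, of which 2218 were listed as higher in KO and so entered through KO IP reads. The 13 and the 33 windows all lay among the 1562 lower windows, of which they are a larger share. A window with 0 KO IP reads did not usually lack input: 181 windows had 0 KO IP reads and 18.2% of these had 0 KO input reads. Both counts include Sirt6, where it was 8 of 8, and outside Sirt6 it was 25 of 173. The median WT input was 8 reads in these 173 windows and 18.5 in the Sirt6 windows. Joining windows up to 1000 bp apart, the 33 windows formed 23 runs, of which Sirt6 was the longest with 8 windows, and 3 others had 2 windows each. The Sirt6 window from 81089501 to 81090000, with 42 WT input reads, had the most WT input reads of any listed window that lacked KO input reads. The next was on chromosome 6 from 125685501 to 125686000 with 29, and the third on chromosome 4 from 43818001 to 43818500 with 24. The chromosome 4 window adjoined one from 43817501 to 43818000 with 2 KO and 61 WT input reads, so low KO input there ran over both windows. No other listed window lay within 1000 bp of the chromosome 6 window. In all, 12 listed windows outside Sirt6 had 0 KO input reads and at least 8 WT input reads, the lowest WT count of a Sirt6 window, and 2 of the 12 had another listed window without KO input within 1000 bp.

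**Figure D2:**
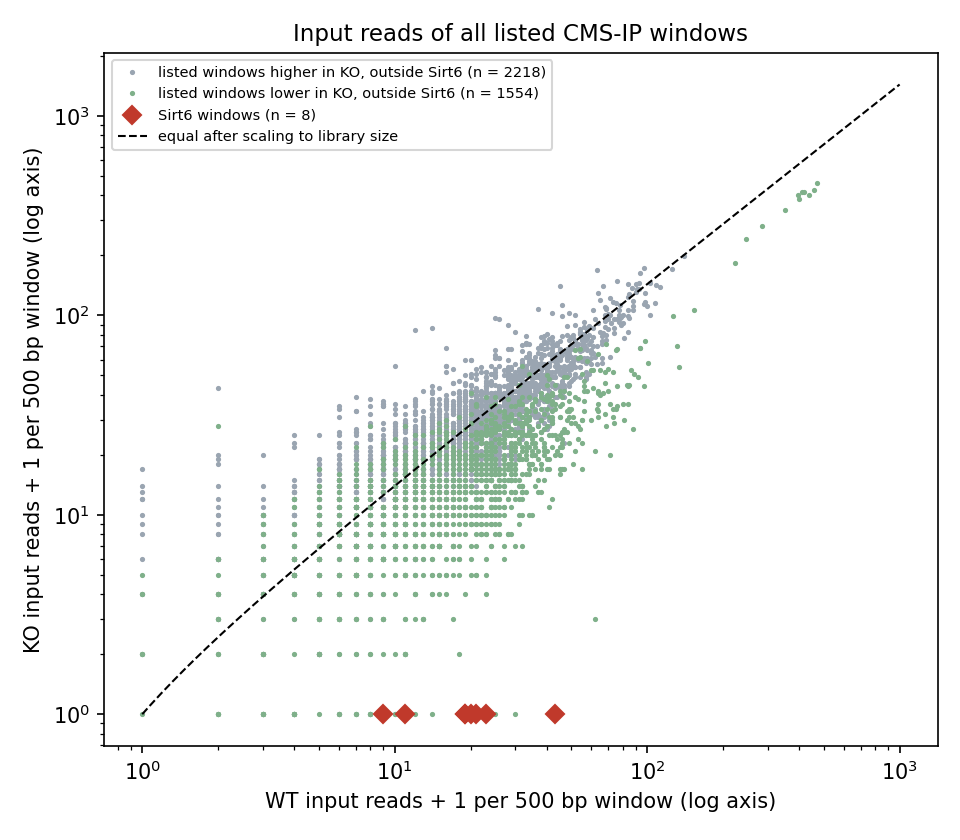
KO input reads against WT input reads, each plus 1, for all 3780 listed windows on log axes; red diamonds are the 8 Sirt6 windows, the other points are the listed windows higher or lower in KO, and the dashed line marks equal levels after scaling to library size. The Sirt6 windows lie on the line of 0 KO reads at 8 to 42 WT reads, and 12 other listed windows lie on the same line at 8 to 29 WT reads.

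In the authors' deposited table the Sirt6 windows stand among the strongest decreases of the IP signal. Windows listed as lower in KO, with p under 0.001, made up 0.0506% of the 3084167 windows tested by the authors. That total was inferred from the ratio of adjusted p to p. An adjusted p under 0.1 was given to 4.16% of the 1562 lower windows in the authors' deposited table, that is to 65 windows, and 7 of the 65 (10.8%) were Sirt6 windows. At an adjusted p under 0.01 the authors' deposited table had 44 lower windows, 4 of them in Sirt6. The window from 81088501 to 81089000 had rank 5 by p among all lower windows, with an adjusted p of 4.16e-13 in the authors' deposited table, and the window from 81087501 to 81088000 had the last rank of the 8, at 103, with an adjusted p of 1. These p-values compare 1 KO with 1 WT library and use IP reads alone. The fitted log2 fold changes of the authors' deposited table, from -9.09 to -7.41 in these windows, follow the WT read count, since every KO count is 0, and do not measure a size. Because the KO input was also at 0, the IP difference in these windows cannot be told apart from the absence of the DNA.

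The WT libraries alone show how the CMS-IP signal was spread along the intact gene. The WT IP signal exceeded the WT input, each scaled to library size, in 7 of the 8 windows. Over these 7 windows, from 81085001 to 81089500, it was 3.17 times the input (295 IP and 115 input reads; exact interval 2.55 to 3.97). The highest ratio was 5.08 (3.004 to 9.04) in the window from 81088501, and the lowest of the 7 was 1.85 (1.02 to 3.44) in the window from 81085501. In the last window, from 81089501 to 81090000, next to the Sirt6 peak at the start side, the ratio was 0.883 (0.533 to 1.44). Its interval lies below that of the other 7 together, and it was singled out after its value was seen. That window combined 30 WT IP reads with the highest WT input, 42 reads, so its low ratio came with more input and not with the fewest IP reads. All 8 windows were listed for having enough WT IP reads, so windows of the gene with less IP signal are not represented. Of the 1554 other listed windows lower in KO, 7 had no WT input reads, hence no ratio, and were left out. The median ratio of the 8 Sirt6 windows was 2.76, beside 3.30 over the rest of those windows, of which the middle 50% ran from 2.03 to 5.49. Except for the last window and the one from 81085501, each Sirt6 ratio lay in that range.

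**Figure D3:**
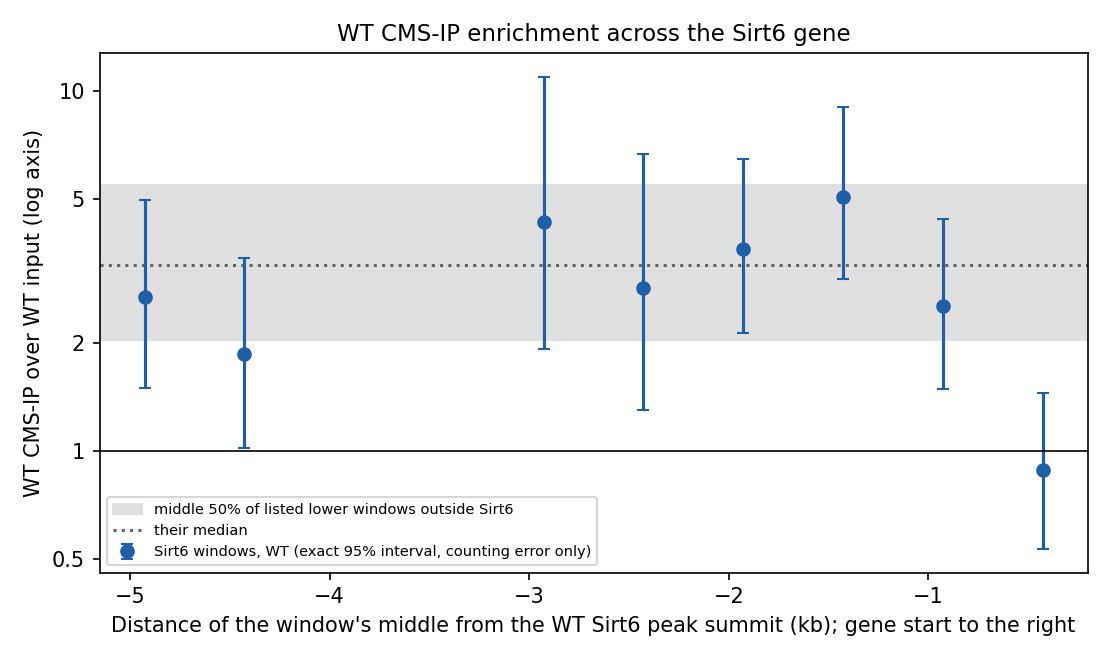
Ratio of WT CMS-IP to WT input reads, scaled to library size, on a log axis for the 8 Sirt6 windows by distance in kb from the summit of the WT Sirt6 peak. Bars are exact 95% intervals for counting error. The grey band holds the middle 50% of the other listed windows lower in KO that had WT input reads, and the dotted line is their median. The 7 windows farther from the peak have ratios of 1.85 to 5.08, and the window nearest the peak 0.883.

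The Sirt6 ChIP-seq gave 1 peak at the Sirt6 gene in WT cells. It ran from 81089975 to 81090321 (347 bp), with its summit at 81090178, and had a pileup of 11 tags, a fold enrichment of 8.86 over the local background and a −log10 q of 10.9, all of them the authors' values for the peak. This is close to the middle of the list: the median fold enrichment of the 14510 WT peaks was 8.08, and 58.2% of them were lower. The peak lay on the start side of the gene, 679 bp inside the upper approximate bound. It shared 26 bp with the last window without KO reads, and its summit lay 178 bp beyond that window, where the table gives no counts. A peak was not rare for this stretch of chromosome 10. Of intervals of the same length, 27 kb, 9.45% held a WT Sirt6 peak over chromosomes 1 to 19 and X, but 48.6% did among the 148 such intervals within 2 Mb of the region. The next peaks were 20.6 kb below this one, from 81069077 to 81069375 with a fold enrichment of 7.57, and 15.4 kb above it, from 81105707 to 81106651 with a fold enrichment of 11.4. The 2 KO Sirt6 libraries had 0 peaks here and 0 in all, with 40006795 and 48956556 tags after filtering against 2008232 in the WT library. For the part of the peak inside the windows without KO input, a missing KO call says nothing of binding. Whether KO cells kept the DNA under the summit was not measured in these tables.

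No acetylation peak was called in the region in any of the 8 lists, WT or KO, untreated or after RA. Such absence is usual over the genome as a whole: of intervals of 27 kb, 5.91% held a peak in any of the 8 lists. The share among intervals near the region, or among those holding a gene start, is not given here. In untreated cells the single lists reached 2.56% of them for WT H3K9ac, 2.57% for WT H3K56ac, 3.4% for KO H3K9ac and 2.11% for KO H3K56ac. After RA they reached 2.43% for WT H3K9ac, 1.93% for WT H3K56ac, 2.9% for KO H3K9ac and 2.1% for KO H3K56ac. The lists held 2063 to 3593 peaks each, from 5782181 to 10250030 tags after filtering, and were called with no control library. They give no level between peaks, so acetylation at the Sirt6 start below the calling limit was not measured. In untreated WT cells the nearest H3K56ac peak lay 61.3 kb below the gene, from 81022508 to 81022682, with a fold enrichment of 5.14, and it overlapped a WT Sirt6 peak. The nearest H3K9ac peak of untreated WT cells was 263 kb above the gene, from 81353587 to 81353741, with a fold enrichment of 7.92. In untreated KO cells the nearest H3K9ac peak was 76.5 kb above, from 81167526 to 81167778, with a fold enrichment of 10.04 and no Sirt6 peak. The nearest H3K56ac peak of untreated KO cells was 703 kb below, from 80380675 to 80380966, and overlapped a Sirt6 peak. After RA the distances were larger. The nearest peaks were 1328 kb away for both marks in KO, in overlapping positions, and in WT 2732 kb away for H3K9ac and 4168 kb away for H3K56ac. With 1 library per list the error of these distances could not be estimated.

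**Figure D4:**
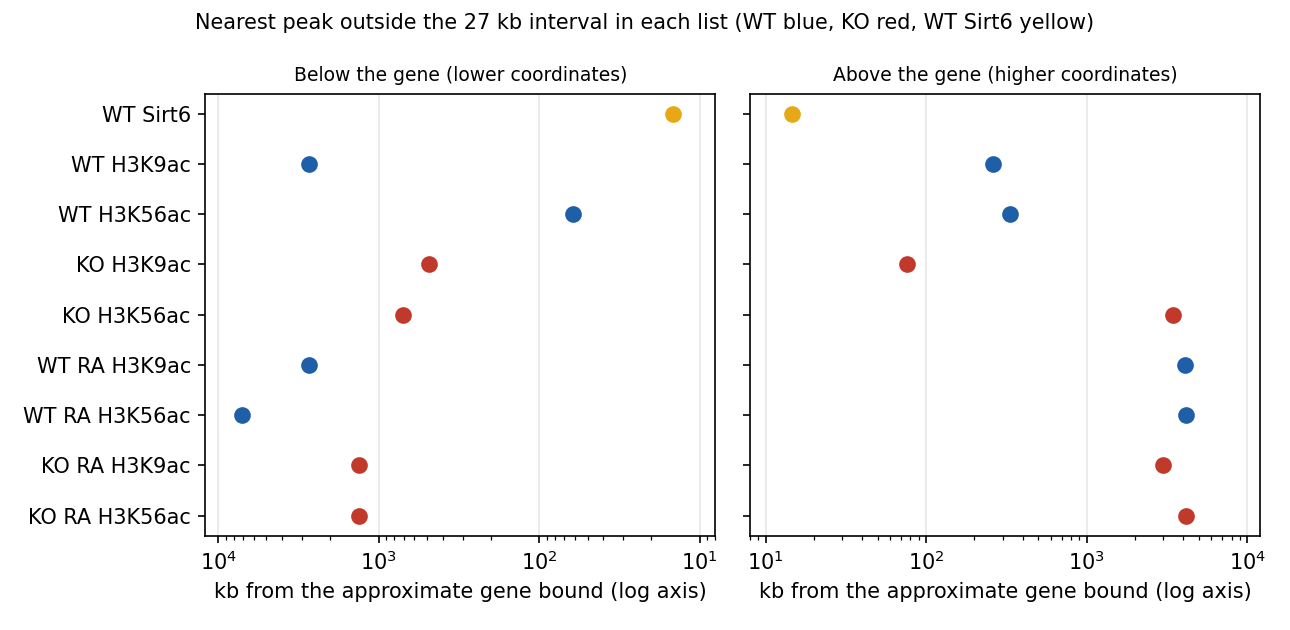
Distance in kb, on a log axis, from the approximate Sirt6 gene bounds to the nearest peak outside the 27 kb region on each side, for the WT Sirt6 list and the 8 acetylation lists. WT Sirt6 peaks lie within 14.6 to 14.7 kb on both sides, and the nearest acetylation peak of any list lies 61.3 kb away.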

How the data were processed

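The data were 1 table of CMS-IP windows, with read counts and RPKM that the authors deposited for 4 libraries, and 11 ChIP-seq peak lists. For the IP reads the deposited table also holds log2 fold changes, log2 abundances and a p-value with its adjusted p, all from edgeR by the column names; the submitters' processing notes name edgeR, and the build mm9. How these reads were aligned: not given in the sources used here. For ChIP-seq the submitters' processing notes name BWA 0.5.9, Picard and MACS2 2.0.10. Each library had its own peak call with q under 0.01, per the file headers. Each deposited peak carries a pileup signal, a fold enrichment ratio and −log10 p and q computed by the authors. Sirt6 lists had a whole-cell extract control and acetylation lists had none, per the file headers.

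Library sizes were computed from counts and RPKM. Ratios are of summed counts scaled to them, with exact (Clopper-Pearson) 95% intervals; a count of 0 was given the limit of 3 counts. Peaks were assigned to the region by an overlap of 1 bp. Features named outside the region were the nearest in each list and the 5 windows with most WT input among those lacking KO input, and the reverse. The region and comparisons were chosen with earlier results of these data known. The neighbourhood of 2 Mb, the promoter stretch, the intervals of 27 kb, the comparison with lower windows and the adjoining chromosome 4 window were chosen after seeing the data. The search for windows without KO input and the exact intervals of ratios were tested on simulated data. For the search, KO counts of planted windows were set to 0, so it was bound to find them. Windows with few WT reads were given a higher mean, so KO counts of 0 arising by sampling in such windows were not simulated. The limit of 3 counts and the peak steps were not. The number of unused columns of per-sample values was 0. The tools were matplotlib 3.10.9, scipy 1.17.1, pandas 2.3.3 and numpy 2.4.6 in Python 3.11.15.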

Additional observations from a re-analysis of the deposited data

How the results depend on the processing

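With the gene alone or with 50 kb on each side, the 8 CMS-IP windows, the 0 KO reads in them and the absence of acetylation peaks were the same as with 10 kb. With 50 kb on each side there were 5 WT Sirt6 peaks in place of 1. The number of listed windows with 0 KO input reads rested on the minimum of WT input reads: it was 31 with at least 5 reads in place of 13 with at least 10, and Sirt6 then supplied 8 of the 31. With at least 15 WT reads, at most 1 KO read, or 0 KO IP reads as well, the table held 9, 18 and 10 windows, of which 6, 7 and 7 were in Sirt6. Without scaling to library size, the limit on the KO to WT ratio was 0.0191 for the input and 0.00923 for the IP, in place of 0.0133 and 0.0109. Limited to the 7 windows that the authors' deposited table puts below 0.1 in adjusted p, the scaled limits were 0.0142 and 0.0117. The WT Sirt6 peak passed a −log10 q of 10. The depth of the WT input, 8 to 42 reads per window, limits the bound for a single window. No paired analysis was possible because each group had 1 library.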

Other observations

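Of the 3780 listed windows, 5 showed the reverse pattern, with at least 10 KO input reads and none in WT. The KO input library was the deeper, so 10 KO reads are a lower minimum than 10 WT reads. The 3 with the most lay close together on chromosome 11, from 6348501 to 6349000 with 16 KO input reads, from 6396001 to 6396500 with 13, and from 6313001 to 6313500 with 12. WT IP reads were 0 in all 3, against 14, 21 and 78 in KO. The other 2 had 11 KO input reads each. One, on chromosome 3 from 130898501 to 130899000, had 2 WT IP reads, and the one on chromosome 6 from 142021001 to 142021500 had 3.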
